A study of Mus musculus with 4 samples.

Results

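G2/M-rich cells, as the term is used here, are the thymic regulatory T cells with 10 or more unique molecular identifiers (UMIs, each a counted mRNA molecule) summed over 17 genes of the G2 and M phases of the cell cycle, namely Top2a, Mki67, Cdk1, Ccnb1, Ccnb2, Birc5, Ube2c, Cenpf, Hmgb2, Aurka, Aurkb, Tpx2, Nusap1, Cdc20, Bub1, Tubb4b and Cks2. They were 681 of 8273 cells (8.23%). The counts of those 17 genes chose the cells and are no finding, and neither is any gene count of the same cells a test, so values are given as descriptions with no p-value.

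Regulatory T (Treg) cells are CD4 T cells that restrain immune responses and are defined by the transcription factor Foxp3. The series asked how the cytokines IL-2 and IL-15 act on their formation in the thymus. Per the labels, all 4 samples were CD4+CD8-Thy1.1+GFP+ cells sorted from the thymus of mice aged 3 weeks on the B6 background, carrying Rag2-Gfp and Foxp3-Thy1a in every group. They comprised 1 sample each of IL2 wt/wt, IL2 o/o, IL15 wt/wt and IL15 o/o animals. Rag2-Gfp makes recently formed T cells fluoresce, and Foxp3-Thy1a puts Thy1.1 on cells that express Foxp3. Barcodes carried 1 of 4 suffixes, taken as libraries 1 to 4, and the labels tie none of them to a genotype. Libraries were therefore never compared as genotypes, and all comparisons were made between cells within a library.

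In G2 a cell that has copied its DNA prepares to divide, and in M phase it condenses its chromosomes, builds a spindle and splits. Cyclin-dependent kinase 1 with A and B type cyclins drives entry, and the anaphase-promoting complex ends mitosis by marking cyclins and securin for destruction. Genes for this machinery peak together late in the cycle, under the DREAM and MuvB complexes, B-Myb, FoxM1 and NF-Y, while genes for DNA replication are driven earlier by E2F factors. In the thymus, dividing cells are common among immature thymocytes and less so among CD4 single-positive cells.

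The 4 libraries held 1609 to 2452 cells and 5717732 to 11274713 UMIs. G2/M-rich cells carried more RNA molecules than the rest, with a median of 9353 UMIs (range 1448 to 32737) against 2987.5 in the other 7592 cells. After every cell was thinned to 2000 UMIs, their median was 994 detected genes against 952.5. Barcodes shared between libraries numbered 27, and 4 G2/M-rich cells had one. Doublets were not removed. Cells above 15000 UMIs were left out in an alternative, which changed the counts of genes below from 960 higher to 898 and from 1108 lower to 909, and the part of doublets in the results was not tested. Library 3 stood apart, with 16 G2/M-rich cells, and 7 of those carried RNA of CD4+CD8+ double-positive thymocytes, described at the end.

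The share of G2/M-rich cells was 10.6% in library 1 (170 cells, exact Clopper-Pearson 95% interval 9.11 to 12.2%), 12.9% in library 2 (316 cells, 11.6 to 14.3%), 0.785% in library 3 (16 cells, 0.450 to 1.27%) and 8.23% in library 4 (179 cells, 7.11 to 9.46%). These intervals, and all others here, cover counting error only. Library 3 lay below the other libraries, and the interval of library 1 overlapped those of libraries 2 and 4. Depth differed too, since the other cells of library 3 had a median of 2491 UMIs against 2915.5 to 3630 elsewhere. At an equal depth of 2000 UMIs per cell, which left out 1261 shallower cells (11 of them G2/M-rich), 10 or more rule-gene UMIs were found in 6.71%, 8.89%, 0.672% and 5.66% of cells in libraries 1 to 4. With 3 or more rule-gene UMIs at that depth the shares were 13.7%, 17.3%, 3.23% and 14.0%, so library 3 stayed lowest at equal depth. Cells in an S-phase range, meaning fewer than 10 rule-gene UMIs but 10 or more over 39 DNA replication genes, were also fewest in library 3. They made up 6.34%, 9.14%, 1.08% and 6.71% of the libraries, 494 cells in all with a median of 6674.5 UMIs.

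**Figure D1:**
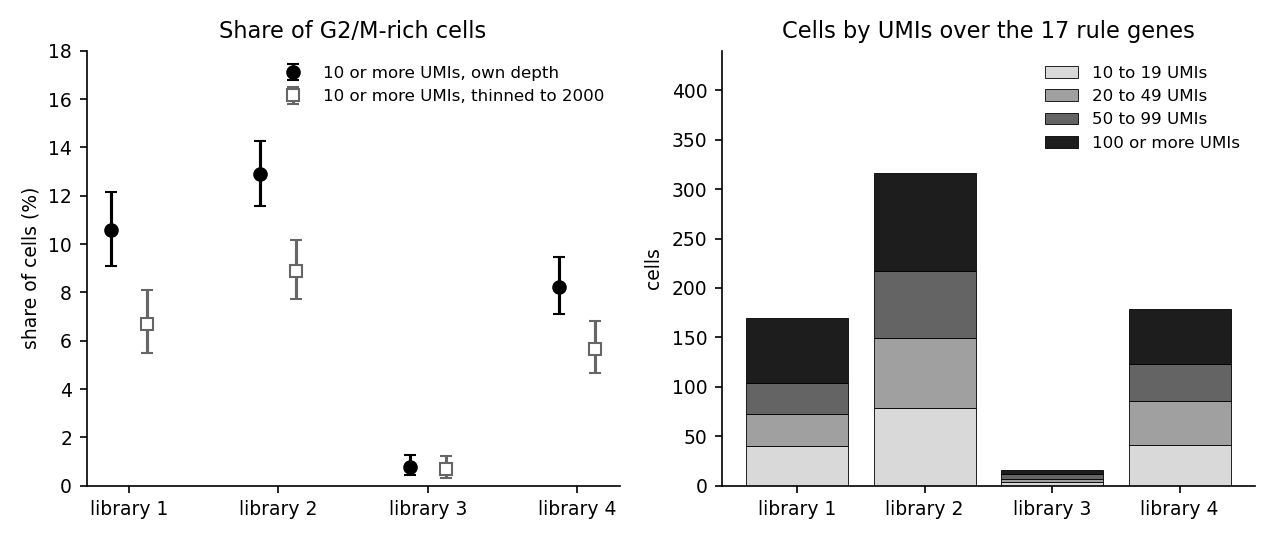
Left, share of G2/M-rich cells (%) in each library, at the cells' own depth (filled) and after thinning to 2000 UMIs (open), with exact 95% intervals. Right, number of G2/M-rich cells per library by their UMIs over the 17 rule genes. Library 3 holds 16 such cells against 170, 316 and 179 in the others.

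The G2/M-rich cells were graded, and most cells of the lowest band had few mitotic transcripts beyond the rule genes. By rule-gene UMIs, 164 cells had 10 to 19, 150 had 20 to 49, 142 had 50 to 99 and 225 had 100 or more (median 57, highest 309). In the band of 10 to 19, 64.2% of the rule-gene UMIs came from Hmgb2, a chromatin protein gene that dividing cells already express in S phase, and in the band of 100 or more this share was 34.1%. The level of 10 mitotic markers that the rule did not use (Plk1, Kif11, Kif23, Cenpe, Cenpa, Hmmr, Ccna2, Prc1, Tacc3 and Cdca8) was read in each cell. At least 3 of the 10 were detected in 484 of the 681 G2/M-rich cells (71.1%), against 8 of 7592 other cells (0.105%). Among S-phase-range cells, which were closer in depth to G2/M-rich cells, the count was 3 of 494 (0.607%). By band of G2/M-rich cells the count was 19 of 164 (11.6%), 104 of 150 (69.3%), 136 of 142 (95.8%) and 225 of 225. In the lowest band 57 cells (34.8%) had none of the 10, so the name mitotic goes against the data there, and G2/M-rich is used for the whole set. These bands differ in depth, with median UMIs of 8220, 7265.5, 9073 and 11113 from lowest to highest.

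Values just inside and just outside the threshold follow. The 57 cells with 10 or 11 rule-gene UMIs and the 68 with 8 or 9 had 65.7% and 62.2% of these UMIs from Hmgb2, a summed level of 160 and 152 CPM (UMIs per 1000000 UMIs) over kinesin, spindle and cytokinesis genes, and a median of 33 and 28.5 UMIs over the replication genes. Ube2c, the ubiquitin-conjugating enzyme of the anaphase-promoting complex, was detected in 3 and 10 of them.

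A second deposited table holds log2 values for 7231 cells and its name marks them as G1 cells. It kept 274 of the 681 G2/M-rich cells (40.2%, interval 36.5 to 44.0%) and 6957 of the 7592 other cells (91.6%). Among cells with 10 to 19 rule-gene UMIs it kept 150 of 164 (91.5%), then 88 of 150 (58.7%), 34 of 142 (23.9%) and 2 of 225 (0.889%) in the higher bands. Per library the share of G2/M-rich cells kept was 40%, 41.1%, 43.8% and 38.5%. S-phase-range cells were kept at 93.7%. Of the 1042 cells left out, 407 were G2/M-rich (39.1%).

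**Figure D2:**
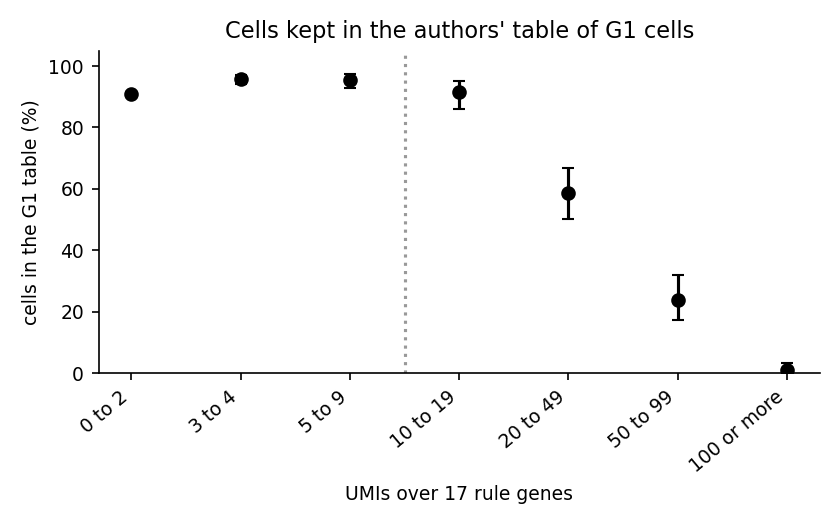
Share of cells (%) that the authors' table of G1 cells kept, by UMIs over the 17 rule genes, all libraries pooled, with exact 95% intervals. The dotted line is the threshold of 10 UMIs. The share is 91.5% at 10 to 19 UMIs and 0.889% at 100 or more.

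Genes outside the rule were compared between G2/M-rich and other cells as a within-library CPM ratio combined over the libraries. To be called, a gene needed 200 UMIs or more in the compared cells, a ratio of 1.5-fold or more, and the same direction in libraries 1, 2 and 4, the libraries with 20 or more cells on each side. Of 8054 genes tested, 960 (11.9%) were higher and 1108 (13.8%) lower, with a median log2 ratio of -0.08. Against the S-phase-range cells, 390 of 5073 genes (7.69%) were higher and 177 (3.49%) lower, with a median of -0.02. Totals without rule, mitochondrial and ribosomal protein genes moved the share of those calls that were higher from 68.8% to 53.9%. Many mitotic genes passed the minimum of 200 UMIs only through the G2/M-rich cells, where they are high. Such genes had to differ, so for those lists, and against S-phase-range cells for the lists of mitosis and histones, the number that reached 200 UMIs in the comparison cells alone is given too. Genes are named mostly for their large ratios, so library values that do not overlap between groups largely follow from that choice. The share of all tested genes without such overlap is not given.

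Kinases, cyclins and their regulators formed the first group. Of 18 listed genes 15 were tested, 14 were higher and none lower (median log2 ratio 3.87), and 6 of the 15 reached the minimum in other cells alone. Plk1, the polo-like kinase that drives centrosome maturation and mitotic entry, stood at 110.3, 121, 139.6 and 119 CPM in the G2/M-rich cells of libraries 1 to 4 and 1.69, 2.04, 0.542 and 1.04 CPM in their other cells (log2 ratio 6.16). Ccna2, cyclin A2, stood at 210.0, 249, 246 and 242 CPM in the G2/M-rich cells of libraries 1 to 4 and 1.69, 2.64, 0.361 and 2.08 CPM in their other cells (6.77). The lowest library value in G2/M-rich cells was far above the highest in other cells for both genes. Nek2, a centrosome-splitting kinase, had a log2 ratio of 7.06, Pbk 6.47, Ttk, the Mps1 kinase of the spindle checkpoint, 5.88, and Ccnf, cyclin F, 5.8. Against S-phase-range cells, 12 of 13 tested members were higher, with Ccna2 at 6.8 and Plk1 at 6.0, but 1 of the 13 reached 200 UMIs in S-phase-range cells alone.

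Kinetochore, passenger-complex and checkpoint genes were all higher, 25 of 25 (median 4.38, 7 of them above the minimum in other cells alone). Knl1, the scaffold that binds microtubules and checkpoint kinases at the kinetochore, stood at 61.9, 58.3, 67 and 74.4 CPM in the G2/M-rich cells of libraries 1 to 4 and 0.508, 0.36, 0.181 and 0.149 CPM in their other cells (7.47). Cenpe, a kinesin that moves chromosomes to the spindle equator, stood at 92.7, 102, 83.7 and 113 CPM in the G2/M-rich cells of libraries 1 to 4 and 1.69, 1.68, 0.542 and 2.97 CPM in their other cells (5.67). Nuf2, part of the NDC80 complex, and Sgo2a, a shugoshin that guards centromeric cohesion, had log2 ratios of 5.86 and 6.34. Library values in G2/M-rich cells did not overlap those in other cells for these 4 genes. The same held for Ska1 (6.16), a microtubule-coupling factor. Of 24 members tested against S-phase-range cells, 23 were higher, but 2 of the 24 reached 200 UMIs in those cells alone, and 1 of these 2 was higher.

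Kinesins, spindle and cytokinesis genes had the highest median of all lists, 5.42, with 25 of 25 tested members higher (32 listed, 3 above the minimum in other cells alone). Kif2c, a kinesin that takes microtubules apart at kinetochores, stood at 47.8, 65.8, 39.1 and 61.5 CPM in the G2/M-rich cells of libraries 1 to 4 and 0.169, 0.24, 0.181 and 0.297 CPM in their other cells (7.88), the largest ratio of all called genes with a usual symbol. Its 4 levels in other cells rest on 1 or 2 UMIs each. Kif11, the motor that pushes spindle poles apart, stood at 76.5, 76.4, 72.6 and 55.3 CPM in the G2/M-rich cells of libraries 1 to 4 and 0.339, 0.959, 0.361 and 0.297 CPM in their other cells (6.87). Hmmr, a spindle assembly factor, was detected at 75.5, 76.8, 72.6 and 103 CPM against 0.169, 0.959, 0.181 and 1.19 CPM (6.73), Ckap2l, a spindle protein, at 50.9, 56, 61.4 and 59.6 against 0.169, 0.479, 0.361 and 0.446 CPM (7.14), and Aspm, which focuses spindle poles, at 27.2, 39.2, 5.58 and 36.9 against 0.677, 0.24, 0.361 and 0.744 CPM (6.04). In library 3 the value of Aspm rests on 1 UMI. The 23 members tested against S-phase-range cells were higher (median 4.67), but 0 of them reached 200 UMIs in S-phase-range cells alone, so the count is a description that the minimum bears on.

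**Figure D3:**
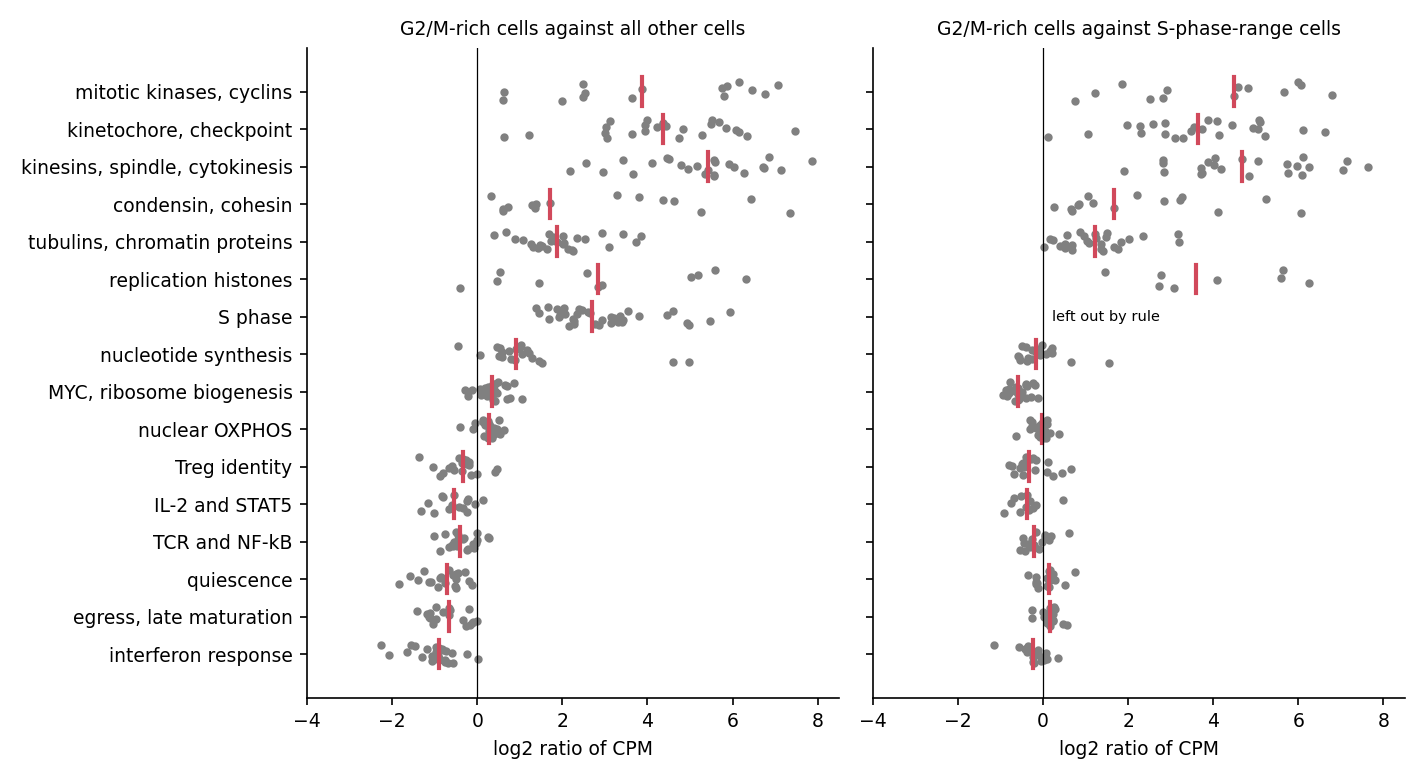
Log2 ratio of CPM of single genes (grey points) and list medians (red bars), in G2/M-rich cells against all other cells (left) and against S-phase-range cells (right). Mitotic and histone lists sit far right of 0 in both panels, while the quiescence, egress and interferon lists have medians of -0.71, -0.67 and -0.90 in the left panel and 0.13, 0.16 and -0.23 in the right.

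Promoters of these genes are shown because many members with large ratios, but not all, held short motifs there. The RefSeq table (build GRCm38.p6) gives 250 bases before to 50 after each start. The elements of late cell cycle genes that were searched, on both strands, are the cell cycle homology region (CHR, as TTTGAA or TTCGAA), which MuvB binds, and CCAAT, which NF-Y binds. E2F elements (TTTGGCGC, TTTCCCGC or TTTCGCGC) were searched for replication genes. The first 3 sequences below were chosen for holding both CHR and CCAAT matches and belong to genes with log2 ratios above 6.8, namely Depdc1a (chr3:159495183-159495482, + strand, a mitotic regulator, 7.19), Ckap2l (chr2:129297163-129297462, - strand) and Kif11 (chr19:37376132-37376431, + strand), and the fourth belongs to the gene of the S phase list with the largest ratio among those holding an E2F match. It is Clspn (chr4:126556730-126557029, + strand, claspin, a replication checkpoint adaptor). Genes with larger ratios, Kif2c and Knl1 among them, were passed over in choosing the first 3. Capitals mark every CHR, CCAAT and E2F match on either strand.
Depdc1a: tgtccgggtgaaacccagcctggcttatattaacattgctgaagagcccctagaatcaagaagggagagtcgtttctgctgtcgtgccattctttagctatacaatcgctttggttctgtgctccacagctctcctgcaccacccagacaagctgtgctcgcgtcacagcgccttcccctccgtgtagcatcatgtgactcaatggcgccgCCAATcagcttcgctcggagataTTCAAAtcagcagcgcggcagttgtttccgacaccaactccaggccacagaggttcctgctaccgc
Ckap2l: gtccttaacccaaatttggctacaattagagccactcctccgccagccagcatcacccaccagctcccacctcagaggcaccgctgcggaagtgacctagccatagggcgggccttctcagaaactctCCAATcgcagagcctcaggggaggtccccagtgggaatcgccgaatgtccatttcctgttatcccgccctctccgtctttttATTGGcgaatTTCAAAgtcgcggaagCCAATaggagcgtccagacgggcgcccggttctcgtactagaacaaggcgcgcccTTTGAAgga
Kif11: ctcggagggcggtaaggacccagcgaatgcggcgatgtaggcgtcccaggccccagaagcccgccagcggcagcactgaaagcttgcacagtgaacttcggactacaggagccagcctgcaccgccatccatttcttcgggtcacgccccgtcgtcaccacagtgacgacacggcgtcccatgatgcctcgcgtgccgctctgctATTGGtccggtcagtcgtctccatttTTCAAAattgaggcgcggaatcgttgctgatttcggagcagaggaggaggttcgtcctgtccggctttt
Clspn: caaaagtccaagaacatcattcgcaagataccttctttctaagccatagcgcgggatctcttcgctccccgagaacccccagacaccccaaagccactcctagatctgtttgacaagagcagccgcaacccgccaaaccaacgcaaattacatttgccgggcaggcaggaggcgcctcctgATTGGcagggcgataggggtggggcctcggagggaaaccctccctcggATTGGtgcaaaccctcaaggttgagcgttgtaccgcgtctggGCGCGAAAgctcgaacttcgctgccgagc
The CHR match began 16 bases before the start in Depdc1a, 19 before in Kif11 and 30 before in Ckap2l, with another 42 bases after the start of Ckap2l. CCAAT matches began 39 bases before the start in Depdc1a and 45 in Kif11, while Ckap2l had 3, at 122, 40 and 14 bases before it. Clspn held an E2F match 22 bases after its start and CCAAT matches 69 and 21 bases before it. CCAAT was in 60% of S phase promoters, 71.4% of those of the mitotic lists and 39.7% of all genes tested. Across genes, a CHR match was in the window of 59 of 104 promoters of genes at least 8-fold higher (56.7%), 129 of 686 of genes 1.5-fold to 8-fold higher (18.8%), 111 of 897 of lower genes (12.4%), 941 of 6532 of all genes tested (14.4%) and 19.4% of all 27025 promoters. Within 60 bases before to 50 after the start the shares were 44.2%, 7.58%, 1.56%, 3.86% and 5.86%. The kinase, kinetochore and spindle lists together held a CHR match in 42 of 63 promoters (66.7%), the S phase list in 5 of 30 (16.7%). An E2F match was in 9 of 30 S phase promoters (30.0%), in 5 of 63 of the mitotic lists (7.94%) and in 4.26% of all genes tested. CHR and CCAAT together were in 44.2% of the promoters of genes at least 8-fold higher and 6.22% of all tested. These matches are letters in a window and no measure of binding.

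Chromosome structure genes moved less. Of 16 condensin and cohesin genes, 15 were tested and 14 were higher (median 1.70, 10 above the minimum in other cells alone). Esco2, which acetylates cohesin during replication, stood at 60.4, 66.2, 123 and 78.1 CPM in the G2/M-rich cells of libraries 1 to 4 and 0.847, 0.36, 0.361 and 0 CPM in their other cells (7.35). Ncapg, a condensin I subunit, stood at 75, 83.6, 72.6 and 78.7 against 1.02, 1.08, 0 and 0.595 CPM (6.44), and Cdca5, or sororin, had a log2 ratio of 5.25. Groups did not overlap for these genes. The condensin II subunit Ncapg2 was at 4.62. Against S-phase-range cells 14 of 15 were higher (median 1.66), with 3 higher of the 4 above the minimum in those cells alone.

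Of the anaphase-promoting complex list, 7 of 17 genes were higher (median 0.41). Of the 16 that reached the minimum in other cells alone, 6 were higher. Against S-phase-range cells 6 of 15 were higher (median 0.15), with 3 higher of the 6 above the minimum in those cells alone. Fbxo5, the inhibitor Emi1, stood at 141, 170.3, 156 and 169 CPM in the G2/M-rich cells of libraries 1 to 4 and 4.74, 5.51, 5.06 and 5.35 CPM in their other cells (4.94). Ube2s, the chain-extending enzyme, was at 583, 617, 804 and 594 against 137, 148, 158 and 139 CPM (2.09), and the co-activator Fzr1, or Cdh1, at 107, 96.9, 55.8 and 95.3 against 28.8, 32.4, 36.7 and 32.4 CPM (1.64). The subunit Anapc15 had a log2 ratio of 1.36.

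Transcription factors of the late cycle were low in level. Of 20 listed, 15 were tested and 8 were higher (median 0.78). Of the 12 above the minimum in other cells alone, 5 were higher. Mybl2, B-Myb, stood at 40.8, 34.1, 55.8 and 34.4 CPM in the G2/M-rich cells of libraries 1 to 4 and 0.847, 1.2, 0.361 and 1.64 CPM in their other cells (4.95), and E2f1 at 44.3, 52.5, 94.9 and 57.2 against 8.81, 9.35, 0.903 and 6.84 CPM (2.67). Foxm1 was at 25.7, 32.1, 33.5 and 18.4 CPM in G2/M-rich cells and 1.02, 0.36, 0.361 and 0.744 CPM in others, but had fewer than 200 UMIs and was not tested. Lin9, a MuvB core gene, was at 1.06 and E2f2 at 1.79. Without library 2 the members higher against S-phase-range cells numbered 1 of 7 rather than 5 of 10, and 0 of the 2 above the minimum in S-phase-range cells alone were higher.

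Tubulin and abundant chromatin protein genes were at high levels in both groups. Their summed level was 30780 to 32463 CPM in G2/M-rich cells and 7209 to 9429 CPM in others, and 26 of 27 tested members were higher (median 1.87, all 27 above the minimum in other cells alone). Stmn1, stathmin, which destabilises microtubules, stood at 2248, 2472, 2345 and 2366 CPM in the G2/M-rich cells of libraries 1 to 4 and 155, 188, 69.2 and 152 CPM in their other cells (3.85). H2afx, the histone variant phosphorylated at DNA breaks, was at 561, 669, 491 and 642 against 43.7, 49.7, 42.6 and 48.2 CPM (3.72), and Lmnb1, lamin B1, at 361, 368, 368 and 392 against 41.7, 44.9, 33.8 and 43.9 CPM (3.1). Groups did not overlap for any of the 3. Tuba1b (2.94) and Tuba1c (3.42) are near-identical tubulin copies whose reads could be split by the counting, so their separate values are uncertain. Against S-phase-range cells 20 of 27 were higher (median 1.22), with 16 higher of the 21 above the minimum in those cells alone.

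Replication genes were high in the same cells. All 38 tested of 39 S phase genes were higher than in other cells (median 2.70, 25 above the minimum in other cells alone), and 572 of the 681 G2/M-rich cells (84.0%) had 10 or more UMIs over the list. Rrm2, the ribonucleotide reductase subunit, stood at 400.3, 467, 558 and 446 CPM in the G2/M-rich cells of libraries 1 to 4 and 6.44, 9.11, 1.81 and 5.95 CPM in their other cells (5.93). Pcna, the sliding clamp, was at 509, 482, 720.2 and 514 against 76.2, 102, 75.7 and 98.2 CPM (2.45), and Clspn at 58.4, 66.5, 61.4 and 71.9 against 0.847, 1.92, 1.81 and 1.34 CPM (5.47). Library values did not overlap between the groups for these genes. The replicative helicase subunits Mcm2, Mcm3 and Mcm6 were at 1.66, 2.05 and 1.87. Ung, which removes uracil from DNA, was at 1.46, but at -0.049 when Hmgb2, Tubb4b and Cks2 were taken out of the rule.

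Some replication histone genes were far higher in G2/M-rich cells. Such mRNAs mostly lack a poly(A) tail, which the 3' kit needs for capture, so their counts cover only part of the transcripts. Of 21 listed, 11 were tested and 8 were higher (median 2.85). Of the 6 above the minimum in other cells alone, 3 were higher. Hist1h2ap, an H2A gene, stood at 2005, 1229, 2468 and 1510.5 CPM in the G2/M-rich cells of libraries 1 to 4 and 19.6, 16.4, 28.2 and 23.2 CPM in their other cells (6.33), with 20.6 CPM in S-phase-range cells. Hist1h2ae was at 214, 190.4, 368 and 283 against 5.93, 5.63, 5.24 and 7.59 CPM (5.19) and Hist1h1b, a linker histone gene, at 47.3, 53.9, 156 and 86.7 against 0.847, 1.44, 0.903 and 1.64 CPM (5.6). The 8 tested against S-phase-range cells were higher (median 3.59), but 0 of the 8 reached 200 UMIs in S-phase-range cells alone. Copies of these genes are near-identical, so which copy gave a read is uncertain. Summed over the list, the level was 299 CPM in the band of 10 to 19 rule-gene UMIs, 1276 at 20 to 49, 3320 at 50 to 99 and 3358 at 100 or more, against 139 just below the rule at 5 to 9.

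Nucleotide synthesis genes went with replication. Of 21, 15 were higher than in other cells and none lower (median 0.90), but the list shares Tyms and Tk1 with the S phase list. Tyms, thymidylate synthase, had a log2 ratio of 4.59, Tk1, thymidine kinase, 4.98, Dck, deoxycytidine kinase, 1.52 and Mthfd2, a mitochondrial folate enzyme, 1.44. Against S-phase-range cells 2 of 19 were higher and 1 lower (median -0.17). Against other cells matched on total UMIs (681 cells, median 7287 UMIs, 287 of them S-phase-range), 5 of 21 were higher, where 10.7% of all 5468 genes tested were higher and 2.85% lower.

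Within the G2/M-rich cells, those with 50 or more rule-gene UMIs (367 cells) were set against those with 10 to 19 (164 cells). This comparison was added after the data were seen. Of 3447 genes tested, 290 (8.41%) were higher and 88 (2.55%) lower in the upper group, with a median log2 ratio of 0.01. Totals without rule, mitochondrial and ribosomal protein genes moved the share of calls that were higher from 76.7% to 60.4%.

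The 23 kinesin, spindle and cytokinesis genes tested were higher (median 3.64), but 0 of them reached 200 UMIs in the lower band alone, so this count too is only a description. Their summed level was 275, 1076, 2024 and 3457 CPM over the 4 bands. Plk1 was at 2.17, 30.7, 87.2 and 229 CPM (log2 ratio of upper to lower cells 6.2), and Hmmr at 1.45, 24.7, 70.9 and 154 (6.11). Both were in the lowest band close to the level just below the rule, 2.23 and 1.11 CPM. Cdkn3, a phosphatase that acts on cyclin-dependent kinases, climbed likewise from 1.45 to 139 CPM (5.92). Esco2 and Neil3, a DNA glycosylase, were above the level just below the rule already in the lowest band (12.3 and 10.9 CPM), with 101 and 88.4 CPM for Esco2 and 92.2 and 109 for Neil3 in the top bands.

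Replication genes went both ways. Of 33 S phase genes tested, 7 were higher and 8 lower (median 0.01), and the 8 became 4 of 24 without library 2. Only 13 of the 33 were above the minimum in the lower band alone, and of these 1 was higher and 5 were lower. The count of 7 higher is therefore a description that the minimum bears on. Ung was at 197, 178, 76.6 and 8.7 CPM over the bands (-2.64). Mcm2 (-1.2), Mcm3 (-1.02) and Mcm6 (-1.01) were lower, as was E2f1 (-1.1). Rrm2 (2.27), Tk1 (1.79) and Rrm1 (1.38) were higher instead, with Rrm2 at its peak of 718 CPM in the band of 50 to 99.

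Of 13 tested cyclins and inhibitors of G1, 6 were higher than in other cells and 3 lower (median 0.33), and against S-phase-range cells 5 of 12 were higher and 1 lower. Of the 10 above the minimum in other cells alone, 3 were higher and 3 lower. Of the 4 above it in S-phase-range cells alone, 1 was higher and 1 lower. Between upper and lower bands, of the 3 above it in the lower band alone, 0 were higher and 1 was lower. Ccnd2, a target of IL-2 and STAT5 signals, stood at 424, 499, 341 and 461 CPM in the G2/M-rich cells of libraries 1 to 4 and 775, 997, 769.7 and 1009 CPM in their other cells (-1.0), with 879 CPM in S-phase-range cells (-0.92). Over the bands it was at 754, 528, 329.7 and 359 CPM (-1.11). Against other cells matched on total UMIs its log2 ratio was -0.86. Cdkn2d, the CDK4 and CDK6 inhibitor p19, had a log2 ratio of 0.32 against other cells, below the size rule, but was higher than in S-phase-range cells (1.09) and in the upper bands (1.35), at 142 and 430.4 CPM in the lowest and highest. Ccng2, cyclin G2, did the same, at 0.33, 1.47 and 2.04. Cdkn2c, the related inhibitor p18, was higher in all 3 comparisons (5.17, 4.36 and 2.59).

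**Figure D4:**
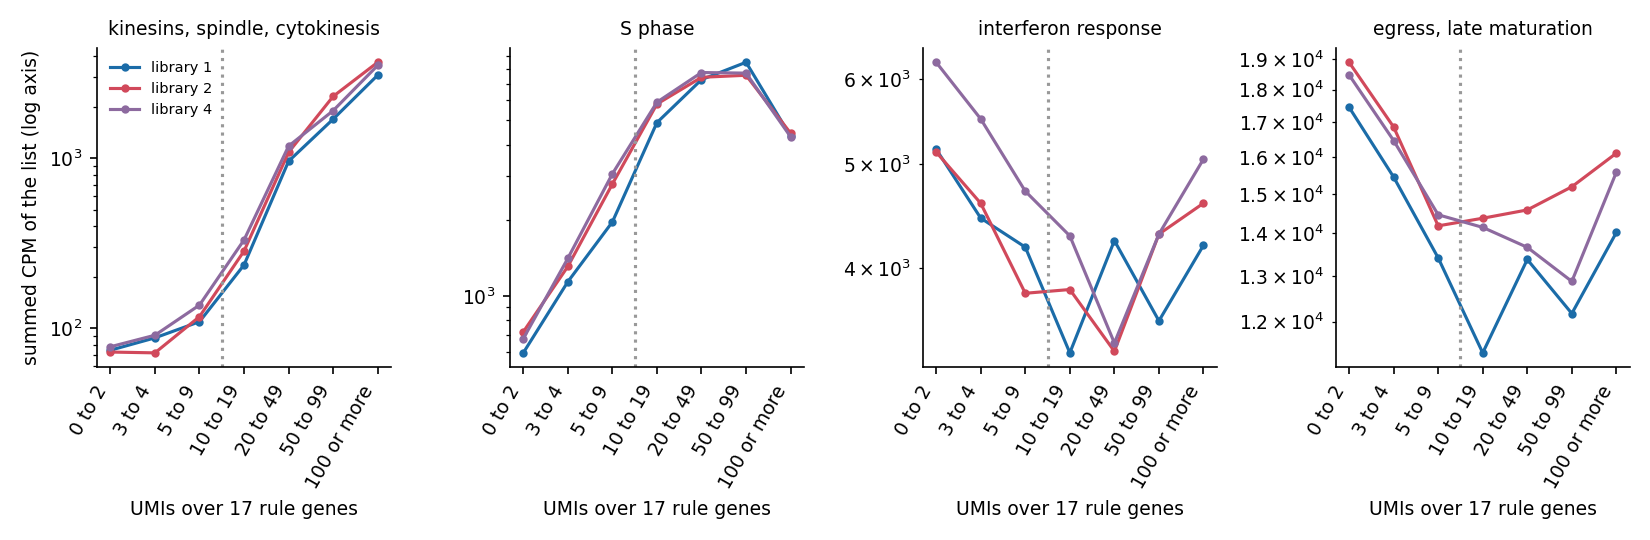
Summed CPM of 4 gene lists (log axes with different ranges) by UMIs over the 17 rule genes, for libraries 1, 2 and 4. Library 3 had 3 to 5 cells in each band from 10 UMIs up and is not drawn. Kinesin and spindle genes climb from 5 to 9 UMIs upward, S phase genes peak at 20 to 99 UMIs, and interferon and egress genes are highest at 0 to 2 UMIs.

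Many genes of the resting state were lower in G2/M-rich cells than in all other cells. Of 20 quiescence genes, 11 were lower than in all other cells and none higher (median -0.71). Btg1, an anti-proliferative gene, stood at 581, 670.1, 441 and 692 CPM in the G2/M-rich cells of libraries 1 to 4 and 1907, 1744, 3159 and 2046 CPM in their other cells (-1.58). Pik3ip1, an inhibitor of PI3 kinase, was at 46.3, 39.9, 22.3 and 36.3 against 178, 128, 191 and 129.6 CPM (-1.85), and Txnip, which limits glucose uptake, at 64, 50.8, 39.1 and 43.6 against 166, 128, 211 and 108 CPM (-1.38). Library values did not overlap between groups for these 3. S-phase-range cells held 827, 44 and 44.6 CPM of Btg1, Pik3ip1 and Txnip. Against them 1 of 19 quiescence genes was higher (Klf6, 0.76) and none lower (median 0.13). Against other cells matched on total UMIs 2 of 19 were lower (median -0.14). Few genes of any kind were lower in these 2 comparisons, 3.49% of all tested against S-phase-range cells and 2.85% against matched cells.

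Late maturation and egress genes were lower too. Of 19 tested, 12 were lower than in other cells (median -0.67), among them the GTPase genes Gimap3 (-1.11), Gimap4 (-1.18) and Gimap6 (-1.14). Gimap4 stood at 185, 260.0, 195 and 272 CPM in the G2/M-rich cells of libraries 1 to 4 and 481, 514, 860.1 and 611 CPM in their other cells, and at 208 CPM in S-phase-range cells. Ccr7, a homing receptor, was at -0.65. Klf2, the factor that switches on egress receptors, was at -0.65 against all other cells but at 0.10 against the depth-matched cells. None of 18 was higher or lower than in S-phase-range cells (median 0.16), and none of 18 was lower than in depth-matched cells (median -0.10). With 3.49% and 2.85% of all genes lower in those comparisons, these counts of 0 show nothing particular to the list.

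Interferon response genes were the list most often lower, 21 of 25 (median -0.90), where 13.8% of all genes tested were lower. Ifit1 stood at 49.9, 31, 16.7 and 25.2 CPM in the G2/M-rich cells of libraries 1 to 4 and 159, 153, 156 and 202 CPM in their other cells (-2.27), and was also lower than in S-phase-range cells (73.7 CPM, -1.15). Iigp1, an immunity GTPase, was at 7.05, 5.46, 27.9 and 7.99 against 22, 30.3, 141 and 28.9 CPM (-2.08), Ifit3 at -1.55 and Oasl2 at -1.65. Summed over the list, levels were 2607 to 4422 CPM in G2/M-rich cells and 4849 to 6106 CPM in other cells. Ifit1 was the 1 member of 18 lower than in S-phase-range cells (median -0.23), a call lost with 20 or more rule-gene UMIs as the threshold (-1.01). With 3.49% of all genes lower in that comparison, this count shows nothing particular to the list. Against depth-matched cells 3 of 18 were lower (median -0.30), where fewer genes had 200 UMIs and 2.85% of all genes tested were lower.

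Slfn5, a Schlafen gene linked to T cell quiescence, had the lowest ratio of all called genes. It gave 0, 3, 0 and 3 UMIs in the G2/M-rich cells of libraries 1 to 4, or 0, 1.02, 0 and 1.84 CPM (upper exact Poisson bounds 1.86, 2.99, 20.6 and 5.39), and 28.8, 30.2, 45.9 and 40.5 CPM in other cells (log2 ratio -5.07). S-phase-range cells had 8.86 CPM, and against depth-matched cells the log2 ratio was -3.72, on fewer than 200 UMIs. Tcp11l2 stood at 8.56, 9.21, 5.58 and 7.99 CPM in the G2/M-rich cells of libraries 1 to 4 and 98.2, 94.8, 110.5 and 102 CPM in their other cells (-3.5), with 34.6 CPM in S-phase-range cells. It went down in steps with rule-gene UMIs, from 107 CPM at 0 to 2 to 64.2 at 5 to 9, 21 at 10 to 19 and 4.35 at 100 or more. Kdm5b, an H3K4 demethylase, was at -1.99 against other cells and -1.24 against S-phase-range cells (32.6 CPM), and Phf1, a Polycomb-associated gene, at -1.98.

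Of 20 tested Treg identity genes 6 were lower and none higher (median -0.34), where 13.8% of all genes were lower. Against depth-matched cells 4 of 18 were lower and 1 higher (median -0.39), where 2.85% of all genes were lower and 10.7% higher. Foxp3 was sparse, with 17, 14, 1 and 8 UMIs in G2/M-rich cells of libraries 1 to 4, or 8.56, 4.78, 5.58 and 4.92 CPM (exact Poisson 95% intervals 4.99 to 13.7, 2.61 to 8.01, 0.141 to 31.1 and 2.12 to 9.69), against 16.3, 15.3, 14.1 and 14.7 CPM in other cells. Its log2 ratio was -1.36. S-phase-range cells had 7.15 CPM, a contrast with too few UMIs to test. Against depth-matched cells the log2 ratio was -0.81, on 93 UMIs, also too few to test. Foxp3 was detected in 5.58% of G2/M-rich and 5.02% of other cells, and after thinning to 2000 UMIs in 1.34% and 3.2%.

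More abundant Treg genes were detected in every library. Ikzf2, the Treg factor Helios, stood at 804, 829, 429.9 and 848 CPM in the G2/M-rich cells of libraries 1 to 4 and 951, 970.1, 1061 and 977 CPM in their other cells (-0.25), and Tnfrsf18, the receptor GITR, at 623, 842, 212 and 706 against 865, 1012, 612 and 904 CPM (-0.36). Ctla4, the inhibitory receptor, was at 126, 175, 39.1 and 148 against 186, 182, 84.3 and 142 CPM (-0.18) and Tnfrsf4, the receptor OX40, at -0.25. None of these 4 met the size rule, and library 3 was the lowest for each of Ikzf2, Tnfrsf18 and Ctla4 among G2/M-rich cells. In that library 7 of the 16 G2/M-rich cells carried RNA of double-positive thymocytes, whose part in these values was not tested. Gpr83 was lower, at 81.1, 119, 22.3 and 88.5 against 206, 219, 80 and 177 CPM (-1.04), as were Icos (-0.87) and Tnfrsf1b (-0.59). Nrp1 was not called against other cells (0.47) but was higher than in S-phase-range cells (0.66), where Tnfrsf9, the receptor 4-1BB, was lower (-0.8). Against S-phase-range cells 3 of 18 list members were lower and 1 higher, where 3.49% of all genes were lower and 7.69% higher. Without library 2 the 3 became 6 of 15.

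The IL-2 receptor chains and STAT5 targets bear on the cytokines of the series, although no genotype could be compared. Il2ra, the high-affinity chain, stood at 133, 155, 44.7 and 113 CPM in the G2/M-rich cells of libraries 1 to 4 and 197, 190.4, 30.7 and 169 CPM in their other cells (-0.44), and Il2rb, shared with the IL-15 receptor, at 147, 195, 33.5 and 183 against 206, 247, 133 and 195 CPM (-0.34). Neither met the size rule, and against depth-matched cells they were at -0.52 and -0.32. Library 3, where 7 of 16 G2/M-rich cells carried RNA of double-positive thymocytes, had the lowest values. Il2rg, the common chain, was lower, at 179, 165, 145 and 200.4 against 280.0, 261, 388 and 316 CPM (-0.68), and at -0.21 against depth-matched cells. Of 15 tested genes in the IL-2 and STAT5 list 6 were lower and none higher (median -0.54), where 13.8% of all genes were lower. Against S-phase-range cells 3 of 12 were lower and none higher (median -0.39), where 3.49% of all genes were lower. Against depth-matched cells 4 of 12 were lower and none higher (median -0.48), where 2.85% of all genes were lower. Bcl2, the survival gene, stood at 297, 347, 112 and 292 CPM in the G2/M-rich cells of libraries 1 to 4 and 651, 741, 598 and 693 CPM in their other cells (-1.17), with 385 CPM in S-phase-range cells, and was at -0.35 against depth-matched cells. Socs1 and Socs2, feedback inhibitors, were at -0.84 and -0.8, and at -0.53 and -0.83 against depth-matched cells. Il2 itself was at 44.8, 30, 33.5 and 32 against 34.7, 30.2, 43 and 37.8 CPM (0.05).

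T cell receptor and NF-kB targets included 5 lower genes of 22 (median -0.39, 3 of 21 without library 1), with Egr2 (-1.03), Junb (-0.86), Nr4a3 (-0.77) and Birc3 (-0.66) among them. Of all genes tested 13.8% were lower. Against S-phase-range cells 0 of 17 were lower and 1 higher (median -0.21), where 3.49% of all genes were lower. Against depth-matched cells 3 of 18 were lower (median -0.37), where 2.85% of all genes were lower. Birc3 was not called there (-0.31), and Egr2 and Nr4a3 had too few UMIs there to be tested (104 and 132). Of 12 effector Treg genes 3 were higher (median 0.40), but 1 of the 9 above the minimum in other cells alone, and 1 without library 1, 2 or 4. With 11.9% of all genes tested higher, the count of 1 of 9 shows nothing particular to the list. Against S-phase-range cells 1 of 6 was higher and 2 lower, where 7.69% of all genes were higher and 3.49% lower. Against depth-matched cells 1 of 7 was higher (median -0.14), where 10.7% of all genes were higher. The 1 gene higher without each of those libraries was Lgals1, galectin-1, at 948, 1187, 463 and 1017 against 444, 622, 111 and 401 CPM (1.08), also higher than in S-phase-range cells (0.74). It was higher in each of the 4 libraries, although the ranges of the groups overlapped across libraries. Cd4 was at 115, 124, 67 and 124 against 147, 137, 164 and 153 CPM (-0.28).

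Many growth genes were lower in G2/M-rich than in S-phase-range cells. Among 26 genes of MYC targets and ribosome assembly, 6 were higher in G2/M-rich than in all other cells and none lower (median 0.35), but 0 of 24 were higher against depth-matched cells and 5 were lower. Against S-phase-range cells 13 of 24 were lower and none higher (median -0.59). Srm, spermidine synthase, stood at 83.1, 98.3, 106 and 89.1 CPM in G2/M-rich and 57.6, 74.9, 41.7 and 62.5 CPM in other cells (0.49, and -0.50 against depth-matched cells), and at 160.0 CPM in S-phase-range cells (-0.78). Mybbp1a (-0.95), Rrp9 (-0.88), Ddx21 (-0.86) and Nop16 (-0.81), all of ribosome assembly, were lower there too. Myc was at 75, 78.1, 44.7 and 55.9 against 84.9, 91.8, 45.1 and 70.1 CPM (-0.23). With rule-gene UMIs the summed list went from 4977 CPM at 0 to 2, to 8901 at 5 to 9, 9034 at 10 to 19 and 6499 at 100 or more. Outside the list, Tma16 (-1.17), Nop2 (-1.14) and Mettl1 (-1.1), genes of ribosome and tRNA maturation, were among the lowest against S-phase-range cells.

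Energy genes differed less. Of 15 glycolysis genes 5 were higher and 1 lower than in other cells (median 0.12), with Tpi1 at 1.39, Pgk1 at 0.97 and Gapdh at 0.82, and the glucose transporter gene Slc2a3 lower (-1.43). None was higher against depth-matched cells or against S-phase-range cells, where Aldoa was lower (-0.97). Of 24 nuclear genes of oxidative phosphorylation 1 was higher (Cox5a, 0.63), and 0 of 13 mitochondrial genome and 0 of 24 ribosomal protein genes were called either way (medians -0.05 and -0.11). Of 14 cholesterol synthesis genes 2 were higher (median 0.28), with Idi1 at 1.27. Of all genes tested 11.9% were higher, so this count shows nothing particular to the list. Against depth-matched cells 0 of 11 were higher.

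Some called genes with large ratios were not counted in any list. Pimreg, a mitotic regulator that the spindle list holds only under an older symbol, had a log2 ratio of 7.31, Sapcd2 7.14, Neil3 6.89 and Mxd3, a MAX partner of the MYC network, 6.59. Mxd3 stood at 91.6, 101, 89.3 and 94.1 CPM in the G2/M-rich cells of libraries 1 to 4 and 1.02, 1.08, 0.181 and 0.892 CPM in their other cells, and at 0.857 CPM in S-phase-range cells. Leaving out library 1, 2 or 4 took Sapcd2, Aspm, Depdc1a and Sgo2a under 200 UMIs, and leaving out library 2 took Nek2, Pimreg and Ttk under it.

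Markers of another cell type were concentrated in a few G2/M-rich cells. Double-positive thymocytes, which divide and have not yet chosen the CD4 lineage, were outside the CD8- sort gate. UMIs were summed over 6 of their markers (Dntt, Rag1, Rag2, Cd8a, Cd8b1 and Ptcra). A cell count at 10 or more such UMIs, a value chosen after the data were seen, was 0, 2, 7 and 8 for the G2/M-rich cells of libraries 1 to 4. These 17 of 681 cells (2.5%, exact interval 1.46 to 3.97%) compare with 51 of 7592 other cells (0.672%, 0.501 to 0.882%). In library 3 they were 7 of 16 cells (43.8%, 19.8 to 70.1%). They held 458 of the 641 double-positive UMIs of all G2/M-rich cells, and no other G2/M-rich cell had more than 5. The cut of 10 UMIs was not adjusted for depth, and G2/M-rich cells were deeper, with a median of 9353 UMIs against 2987.5.

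Summed levels of the 6 markers were 21.7, 42.0, 983 and 184 CPM in the G2/M-rich cells of libraries 1 to 4, and 55.7, 58.1, 75.1 and 79.7 CPM in their other cells. Dntt, the terminal transferase of receptor rearrangement, stood at 2.01, 7.17, 357 and 39.3 CPM in the G2/M-rich cells of libraries 1 to 4 and 8.98, 9.83, 14.4 and 8.48 CPM in their other cells. Cd8a was at 7.05, 9.21, 285 and 38.7 against 11.3, 11.9, 13.5 and 16.8 CPM, Cd8b1 at 12.1, 21.5, 246 and 77.5 against 27.4, 30.9, 39.9 and 45.5 and Rag1 at 0.504, 0.682, 27.9 and 7.38 against 2.71, 2.52, 3.97 and 4.61. Library 3 was highest for all 4 among G2/M-rich cells and libraries 1 and 2 lay below their other cells. The wider list of 14 double-positive genes had 10 tested, 1 higher (Mns1, 2.85) and 1 lower (Ccr9, -0.6, -0.45 without library 1), with medians of -0.45, -0.39, 2.72 and 0.66 in libraries 1 to 4. Without the 68 cells of 10 or more marker UMIs, 952 genes were higher and 1082 lower in G2/M-rich cells, against 960 and 1108 with them, and the share of G2/M-rich cells was 8.09%.

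Markers of further cell types were checked. Of natural killer and gamma-delta, B cell, myeloid and dendritic, thymic epithelial and erythroid lists, 12 genes were tested and none was higher or lower than in other cells. Against depth-matched cells 2 of 3 natural killer and gamma-delta genes and 3 of 4 erythroid genes were lower, and against S-phase-range cells 1 of 3 natural killer and gamma-delta and 1 of 2 myeloid genes were. Csf1r and Lyz2 of the myeloid list, Ms4a1 and Pax5 of the B cell list and Krt5, Krt8 and Foxn1 of the epithelial list had no UMI in any G2/M-rich cell. Summed natural killer and gamma-delta genes were at 117 to 327 CPM in G2/M-rich cells and 62.3 to 260 CPM in others, and B cell genes at 17.4 to 22.7 and 10.5 to 21.0 CPM. Summed erythroid genes reached 1939 CPM in the other cells of library 3 and 22.3 CPM in its G2/M-rich cells. In libraries 1, 2 and 4, whose direction the call rule used, they were at 0 to 1.23 CPM in G2/M-rich cells. In the other cells of those libraries they were at 0 to 8.39 CPM. The direction of the erythroid calls there rests on few or no UMIs, and those calls show no difference. Nkg7, a cytotoxic granule gene, was lower than in S-phase-range cells (-1.01), at 236, 176, 61.4 and 190.0 against 376 CPM there. The part of these other types in the comparisons was not tested.

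**Figure D5:**
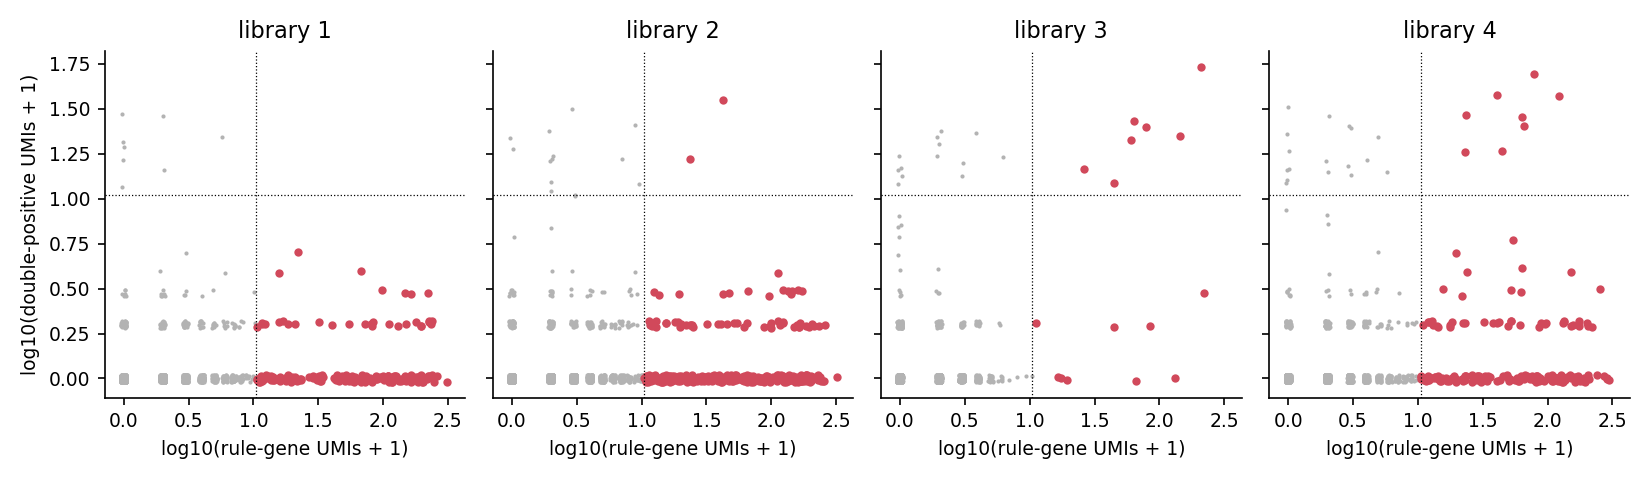
UMIs over 6 double-positive thymocyte markers against UMIs over the 17 rule genes, both as log10 of the value plus 1, for every cell of libraries 1 to 4, with slight jitter. Red points are G2/M-rich cells, and dotted lines mark 10 UMIs on each axis. In library 3, 7 of 16 red points lie above the horizontal line, against 0 of 170 in library 1.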

How the data were processed

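Droplet 3' single-cell libraries were analysed from sorted thymic Treg cells. The deposited count table gives UMIs of 27998 genes in 8273 cells. The submitters' processing notes name the mm10 build, R 3.4.1, Cell Ranger 2.0.2 and CASAVA 2.20. Cell filtering and G1 assignment are not given in the sources used here. In addition, the authors deposited log2 values for 9571 genes in 7231 cells. In 400 genes tested, each equalled the log2 of the count over 1 factor per cell, plus 1. They served only to show which cells were kept. Symbols were given to 27645 identifiers, and 353 had none.

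CPM ratios were Mantel-Haenszel ratios over libraries, with 0.5 UMIs added for the log. No p-value was computed, since each genotype has 1 sample, cells are not replicates, and no library could be assigned. The call rule is one of size. Members and lists were chosen with earlier results of these data known. Of 31 lists, 5 genes were not analysed here, and a few items are not reported here and were left out of the lists and marker sums. Named genes are the 17 rule genes, up to 12 called genes with the largest and smallest ratios, up to 4 per list each way, and a fixed set of receptor, lineage and cycle genes, passing over gene models without a usual symbol. Poisson and Clopper-Pearson intervals are exact at 95%. The ratio code was tested on simulated data. Alternatives covered scaling, minimum UMIs, fold, membership, other-cell sets, cell weights, cell filters and omission of each library in turn. Tools were matplotlib 3.10.9, pandas 2.3.3, scipy 1.17.1, numpy 2.4.6 and Python 3.11.15.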

Additional observations from a re-analysis of the deposited data

How the results depend on the processing

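The number of genes higher in G2/M-rich cells (960) became 2710 with a minimum of 1 UMI, 510 at 2-fold and 583 against other cells matched on total UMIs, and the number lower (1108) became 1792, 274 and 156. Against S-phase-range cells the 390 higher became 775 at a minimum of 50 UMIs, 1154 at 1 UMI and 202 at 2-fold. The 177 lower became 284 with totals that leave out rule, mitochondrial and ribosomal protein genes, 479 at 50 UMIs, 1636 at 1 UMI and 17 at 2-fold. Between upper and lower bands the 290 higher became 664 at 50 UMIs, 958 at 1 UMI and 160 at 2-fold, and the 88 lower became 161 with those totals, 382, 1680 and 6. A lower minimum tests more genes, and matched cells test fewer. Those totals moved the share of calls that were higher from 68.8% to 53.9% against S-phase-range cells and from 76.7% to 60.4% between bands, and the median of all genes against other cells from -0.08 to -0.15.

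The share of G2/M-rich cells, 8.23%, was 5.85% and 12.7% after thinning to 2000 UMIs with 10 or more and 3 or more rule-gene UMIs, 12.8% at 5 or more, 6.25% at 20 or more, 7.01% at 20 or more per 10000 UMIs, 5.67% without Hmgb2, Tubb4b and Cks2 and 7.31% without cells above 15000 UMIs. Leaving out 1 library gave 6.27% (without library 2) to 10.7% (without library 3). The share kept in the G1 table, 40.2%, was 60.04% at 5 or more, 24.0% at 20 or more, 28.1% at 20 or more per 10000 and 17.3% without those 3 genes, and 39.5 to 40.8% with 1 library left out. Leaving out 1 library gave 837 to 879 genes higher and 990 to 1105 lower, 280 to 384 and 131 to 172 against S-phase-range cells, and 205 to 289 and 59 to 86 between bands.

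Of 8616 values of named genes under alternatives, 18 that were called under either setting changed sign, 459 more dropped below the rule of size or count, 128 came to pass it and 8011 did neither. Of these 8011, 159 changed sign without being called under either. Ung was at -0.049 with Hmgb2, Tubb4b and Cks2 out of the rule. Against cells matched on total UMIs, Cad was at -0.10, Ccnd3 0.027, Ccr9 0.43, Cyp51 -0.19, Hspd1 -0.30, Idi1 -0.056, Il1r2 -0.42, Klf2 0.10, Klf3 0.046, Ly6c1 0.35, Odc1 -0.051, Satb1 0.064 and Tmie 0.094, and Mettl1 (-0.76), Mybbp1a (-0.66), Nkg7 (-0.88) and Nop16 (-0.62) were lower there though not called and above 0 against all other cells. The cause was not tested, and those cells were still shallower (7287 against 9353 median UMIs). The alternatives without cells of 10 or more double-positive UMIs and without cells above 15000 UMIs, and the comparison of bands, were chosen after seeing the data. No paired analysis was possible because each labelled group has 1 sample and no library is tied to one. The ratios between cell classes were themselves taken within each library, so they already pair the classes by library. The planned count of cells with both T cell receptor beta constant genes was not run, since they were not matched in the table.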
